A study of Homo sapiens with 9 samples.

Results

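PLXND1 and SEMA3F are the semaphorin signalling genes among the 49 genes whose read counts were analysed in HK-2 cells. They were taken as 2 of the 49 genes by their gene identifiers, ENSG00000004399 and ENSG00000001617. The choice was made with earlier results of these data known, and the p-values below do not account for it. HK-2 cells are immortalized epithelial cells of the human proximal tubule. RNA was sequenced from 9 libraries in 3 groups of 3. The Ctrl_Normal group carried a control shRNA and received no advanced glycation end products (AGEs). The Ctrl_AGE group carried the same control shRNA and was exposed to AGEs at 400 µg/ml for 72 h. The shJMJD1A_AGE group carried an shRNA against JMJD1A (KDM3A), an H3K9 demethylase, and had the same exposure. All groups therefore carried a lentiviral shRNA. No group combined the JMJD1A shRNA with untreated medium, so the effect of the shRNA without AGEs was not measured. GEO's treatment text is the same for all 9 libraries, and the untreated state of Ctrl_Normal rests on the titles.

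Semaphorins are secreted or membrane-bound cues that steer axons, vessels and epithelial cells, mostly by repelling them. Their receptors are the plexins, which cross the membrane and carry a cytoplasmic domain that switches off small GTPases of the Rap and R-Ras type. Class 3 semaphorins are secreted, and most of them bind a neuropilin that partners with a plexin. SEMA3F is a class 3 ligand that signals mainly through neuropilin-2 with A-type plexins, and it is known as an inhibitor of vessel growth. PLXND1 is the only D-type plexin, binds SEMA3E directly, and is best known from the mouse for its part in vessel patterning.

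PLXND1 lies on the minus strand of chromosome 3 of GRCh38, from 129555214 to 129606676, and its canonical transcript has 36 exons (GENCODE release 44). SEMA3F lies on the plus strand of the same chromosome, from 50155045 to 50189075, and its canonical transcript has 19 exons. The genes are 79366139 bp apart. No exon of PLXND1 was overlapped by another gene. Of the exon bases of SEMA3F, 110 of 4826 (2.28%) were shared with SEMA3F-AS1, a long noncoding RNA gene on the other strand. The strand setting of the counting is not given in the sources used here, so reads within these bases cannot be assigned to either gene.

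The 250 bases before a RefSeq start of each gene are shown because both genes fell together after JMJD1A knockdown and because the windows shown were rich in G and C. They were taken from RefSeq (GRCh38.p14), run 5′ to 3′ on the strand of the gene, and matched the genome. Capitals mark the GC box GGGCGG on either strand, with each overlapping match counted. PLXND1 is on the minus strand at chr3:129606677-129606926 and SEMA3F on the plus strand at chr3:50154808-50155057, the most upstream of its 3 windows in RefSeq. The last 13 bases of this SEMA3F window lie within the gene as GENCODE draws it.
PLXND1: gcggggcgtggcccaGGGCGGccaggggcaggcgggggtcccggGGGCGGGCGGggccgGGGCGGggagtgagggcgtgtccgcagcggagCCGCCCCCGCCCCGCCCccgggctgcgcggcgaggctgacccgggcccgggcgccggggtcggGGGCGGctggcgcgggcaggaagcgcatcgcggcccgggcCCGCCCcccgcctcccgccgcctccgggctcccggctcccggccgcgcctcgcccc
SEMA3F: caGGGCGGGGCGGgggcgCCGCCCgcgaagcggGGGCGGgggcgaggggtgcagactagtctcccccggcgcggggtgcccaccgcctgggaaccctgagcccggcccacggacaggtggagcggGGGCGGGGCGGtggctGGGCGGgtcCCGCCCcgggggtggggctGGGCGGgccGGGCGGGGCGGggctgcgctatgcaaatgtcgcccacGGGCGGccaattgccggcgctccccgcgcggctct
The PLXND1 window held 88.8% G and C and 9 GC boxes. The SEMA3F window held 82.0% G and C and 12 GC boxes. The 2 other SEMA3F windows, which are not shown, held less, at 80.4% G and C with 2 GC boxes and at 52.8% with 0. Over 35116 windows of the same length, the median share of G and C was 58.0% and 42.6% of windows held a GC box. At least 9 were held by 0.28% of windows and at least 12 by 0.05%. The share of G and C of the PLXND1 window was reached by 0.04% of windows, and that of the SEMA3F window by 1.68%. The windows were shown for this richness, so these shares do not test a link with the fall of the genes. Neither window shown held the core of the hypoxia response element (ACGTG, in 18.5% of windows), the E-box CACGTG (6.3%) or the nuclear receptor half-site AGGTCA (12.1%), each searched on both strands. ACGTG also matches within CACGTG. The SMAD core CAGAC occurred 1 time in this SEMA3F window and 0 times in that of PLXND1, and 38.0% of windows held it. These are matches of letters only, and binding was not measured.

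The counts of the 49 genes summed to 67563 to 107036 per library, which is not the depth of the library. The sums were 67563 to 86854 after JMJD1A knockdown and 85894 to 107036 in the 2 other groups, so that the highest knockdown library lay just above the lowest of the others. The scaling of the libraries therefore mattered, and the results are given with other scalings where these moved them. Every scaling used was computed from these genes alone, so all fold changes are relative to them. KDM3A was not analysed here, so the labels could not be checked by the targeted gene. Of the 8 proximal tubule markers listed, and of the markers of other tubule segments, endothelium, fibroblasts and neurons, 0 were among the genes analysed, so the cell type could not be checked either. Of 58 genes of semaphorin signalling listed, only PLXND1 and SEMA3F were among the genes analysed. The other plexins, the neuropilins and SEMA3E were not analysed here.

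PLXND1, a plexin receptor, ranked 2 of the 49 genes by its mean normalized count. Its reads numbered 15529, 13473 and 14163 in the Ctrl_Normal libraries. They numbered 12584, 10141 and 10383 in Ctrl_AGE, and 6571, 6099 and 8213 in shJMJD1A_AGE. The shJMJD1A_AGE libraries were below all the others before scaling, but their sums over the 49 genes were also mostly lower. PLXND1 took 13.4% to 14.5% of the counts of the 49 genes in Ctrl_Normal, 11.5% to 12.8% in Ctrl_AGE and 8.42% to 9.46% in shJMJD1A_AGE. PLXND1 is itself part of these sums, and how many other genes separate the groups on this scale was not counted. Scaled by TMM (a trimmed mean of the ratios between libraries) over all 9 libraries, the normalized count was 12613 ± 766 (SD, n = 3) in Ctrl_Normal, 11291 ± 872 (SD, n = 3) in Ctrl_AGE and 7682 ± 460 (SD, n = 3) in shJMJD1A_AGE. On this scale the highest Ctrl_AGE library, 12290, lay above the lowest Ctrl_Normal library, 12022. The highest knockdown library, 8194, lay well below the lowest Ctrl_AGE library, 10676.

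SEMA3F, a secreted ligand, had 4658, 3868 and 4916 reads in Ctrl_Normal. It had 4390, 3807 and 3271 in Ctrl_AGE, and 2260, 2330 and 3107 in shJMJD1A_AGE. The 2 groups with the control shRNA overlapped widely, and the knockdown libraries were again the lowest. The normalized count was 3926 ± 428 (SD, n = 3) in Ctrl_Normal, 3911 ± 434 (SD, n = 3) in Ctrl_AGE and 2832 ± 297 (SD, n = 3) in shJMJD1A_AGE. The highest knockdown library, 3100, was close to the lowest Ctrl_AGE library, 3436, and to the lowest Ctrl_Normal library, 3451. The margin between the groups was thus narrower for SEMA3F than for PLXND1.

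**Figure D1:**
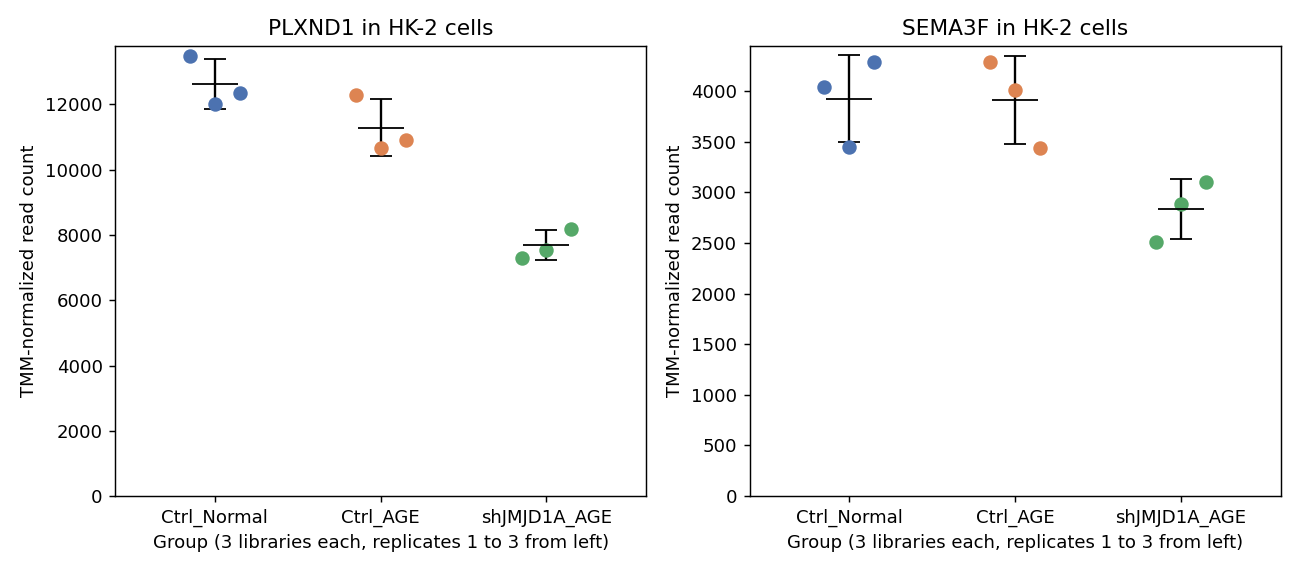
TMM-normalized read counts of PLXND1 (left) and SEMA3F (right) in each library, by group; points are libraries, bars the mean with the SD (n = 3). The knockdown libraries lie at 7305 to 8194 for PLXND1 and 2512 to 3100 for SEMA3F, below every library of the 2 other groups.

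The counting error of a single library was at most 1.28% for PLXND1 and 2.1% for SEMA3F. The coefficient of variation between libraries was 5.99% to 7.73% for PLXND1 and 10.5% to 11.1% for SEMA3F. The median over the 46 genes tested was 6.06% in Ctrl_Normal, 6.35% in Ctrl_AGE and 10.9% in shJMJD1A_AGE. SEMA3F had the higher coefficient of the pair in each group. No label says whether libraries of the same group were separate cultures. The p-values rest on the spread between these libraries, pooled over genes, and not on the spread of 1 gene alone. In RNA from a whole culture, fewer cells with a transcript and less transcript per cell cannot be told apart.

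Per kilobase of exon, PLXND1 was also the more abundant transcript of the pair. Its normalized count per kilobase was 1320 ± 80.2 (SD, n = 3) in Ctrl_Normal, 1181 ± 91.3 in Ctrl_AGE and 804 ± 48.1 in shJMJD1A_AGE. That of SEMA3F was 813 ± 88.7 (SD, n = 3), 810 ± 89.9 and 587 ± 61.6 in the same order. By the mean over all libraries PLXND1 ranked 5 and SEMA3F 8 of the 49 genes on this scale. After knockdown, PLXND1 stood at about the level per kilobase that SEMA3F had in the control shRNA groups.

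The first comparison asked whether AGEs change these genes in cells with the control shRNA. Neither gene passed. PLXND1 had a log2 fold change of −0.12 (standard error 0.0595), a level 8.24% below that of untreated cells, with a p of 0.0884 by edgeR's quasi-likelihood test after Benjamini-Hochberg adjustment over all genes tested. Its 95% interval, without adjustment, ran from −0.24 to −0.0067. SEMA3F had a log2 fold change of 0.028 (standard error 0.0710), an interval from −0.11 to 0.17 and an adjusted p of 0.765 by the same test. The test pools the spread over genes, and its degrees of freedom here were 184 for PLXND1 and 75.1 for SEMA3F. For the knockdown against Ctrl_AGE they were 10.7 for both. The standard errors with AGEs alone thus rest largely on the other genes. Libraries were scaled within the pair of groups for this test, and over all 9 libraries the mean of SEMA3F was slightly lower with AGEs, so its direction is not settled. In this comparison 6 of 46 genes passed in the lower direction (13.0%), and in 47.8% the groups did not overlap. For both members they overlapped.

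The call for PLXND1 depended on the processing. It passed under 4 of 17 alternatives, among them the fits without Ctrl_AGE replicate 1 (−0.18, adjusted p = 0.0257 by edgeR) and without Ctrl_Normal replicate 3 (−0.13, adjusted p = 0.0201 by edgeR). Another of the 4 was scaling by plain totals (−0.19, adjusted p = 0.00195 by edgeR), of which PLXND1 is itself a large part. Under the other 13 PLXND1 did not pass. Its adjusted p by edgeR was 0.391 without Ctrl_Normal replicate 1 and 0.348 without Ctrl_AGE replicate 2. Its log2 fold change was below 0 under all 17 alternatives tried, between −0.19 and −0.086. SEMA3F had values on both sides of 0 under the alternatives, from −0.053 without Ctrl_Normal replicate 2 to 0.10 without Ctrl_Normal replicate 3, and passed in none of them.

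The second comparison asked what knockdown of JMJD1A does in cells exposed to AGEs. Both genes fell. PLXND1 was lower by 33.3% (log2 fold change −0.59, standard error 0.0798) and SEMA3F by 29.0% (log2 fold change −0.49, standard error 0.105). By edgeR, PLXND1 had an adjusted p of 0.000131 and SEMA3F one of 0.00259. For both genes every knockdown library lay below every Ctrl_AGE library. Of 45 genes tested, 10 passed in the lower direction (22.2%), the 2 members among them, and in 53.3% the groups did not overlap. By size of the log2 fold change PLXND1 was the 7th and SEMA3F the 8th lowest of the 45, and neither reached a fold of 2. With a fold of at least 2, 4 genes (8.89%) passed. Over all 45 genes the median was 0.041.

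These falls held without any one library. The log2 fold change of PLXND1 lay between −0.64 and −0.51, and that of SEMA3F between −0.58 and −0.38. With plain totals they were smaller, −0.44 for PLXND1 and −0.34 for SEMA3F, since that scaling moved the median of all genes by 0.15, and both still passed. When the scaling was computed without the 2 genes themselves, they were −0.60 and −0.51. Both genes passed under 16 of 17 alternatives. The exception was the exact permutation test per gene, whose smallest p with 3 libraries against 3 is 0.1, so that no gene can pass by it.

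**Figure D2:**
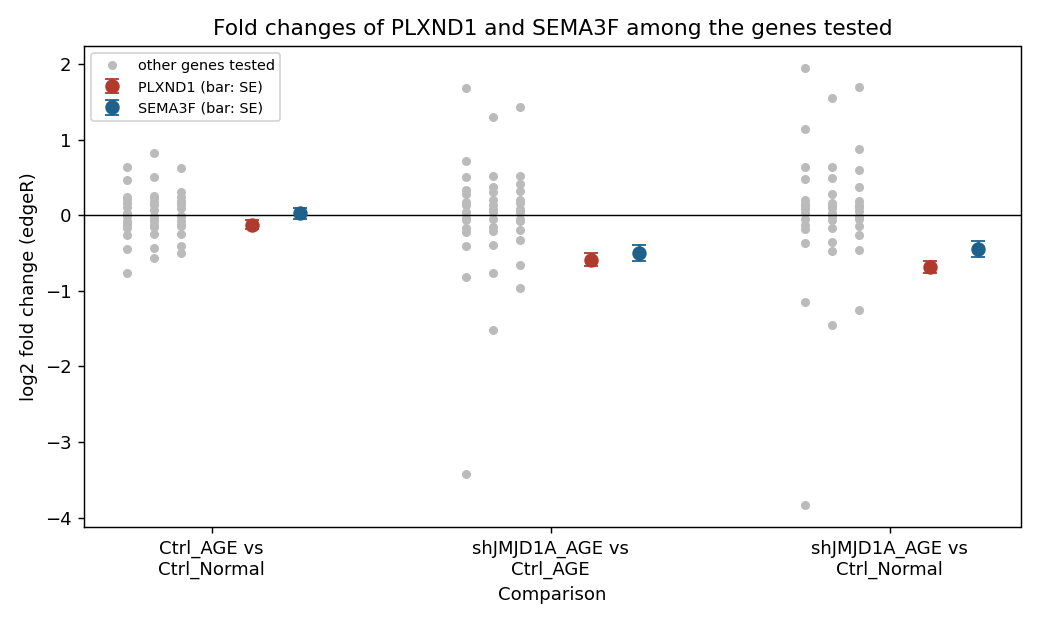
Log2 fold changes of PLXND1 (red) and SEMA3F (blue) with their standard errors, and of the other genes tested (grey, spread sideways for visibility), in each of the 3 comparisons. Both genes lie near 0 with AGEs alone and between −0.69 and −0.44 in the comparisons with the knockdown.

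The third comparison set the knockdown cells exposed to AGEs against untreated cells, to ask whether the genes ended above, at or below the untreated level. Both ended below it. PLXND1 was 37.9% lower (log2 fold change −0.69, standard error 0.0804) and SEMA3F 26.5% lower (log2 fold change −0.44, standard error 0.106). By edgeR, PLXND1 had an adjusted p of 4.38e-05 and SEMA3F one of 0.00512. Again 10 of 45 genes passed in the lower direction (22.2%), 13.3% passed with a fold of at least 2, neither member among them, and in 55.6% the groups did not overlap, as for both of these genes. With plain totals the log2 fold changes were −0.62 for PLXND1 and −0.38 for SEMA3F (adjusted p = 0.0127 by edgeR), and both still passed. PLXND1 passed without any one library. SEMA3F no longer passed without Ctrl_Normal replicate 3, its highest untreated library, where the log2 fold change was −0.35 (adjusted p = 0.0854 by edgeR).

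The groups of this comparison differ in 2 conditions at once, the shRNA and the AGEs, which cannot be told apart in it. The comparisons also share libraries, so their values stand side by side and are not separate evidence. With all 3 groups in one fit, PLXND1 had log2 fold changes of −0.16 with AGEs, −0.56 for the knockdown against Ctrl_AGE and −0.72 for the knockdown against Ctrl_Normal. Those of SEMA3F were −0.0055, −0.47 and −0.47 in the same order. By these fold changes the order of the levels was Ctrl_Normal, Ctrl_AGE, shJMJD1A_AGE for PLXND1. Between Ctrl_Normal and Ctrl_AGE, PLXND1 did not pass in this fit (adjusted p = 0.155 by edgeR) or in the fit of that pair. The unadjusted interval below 0 came from the fit of the pair only. For SEMA3F these 2 groups were nearly equal.

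**Figure D3:**
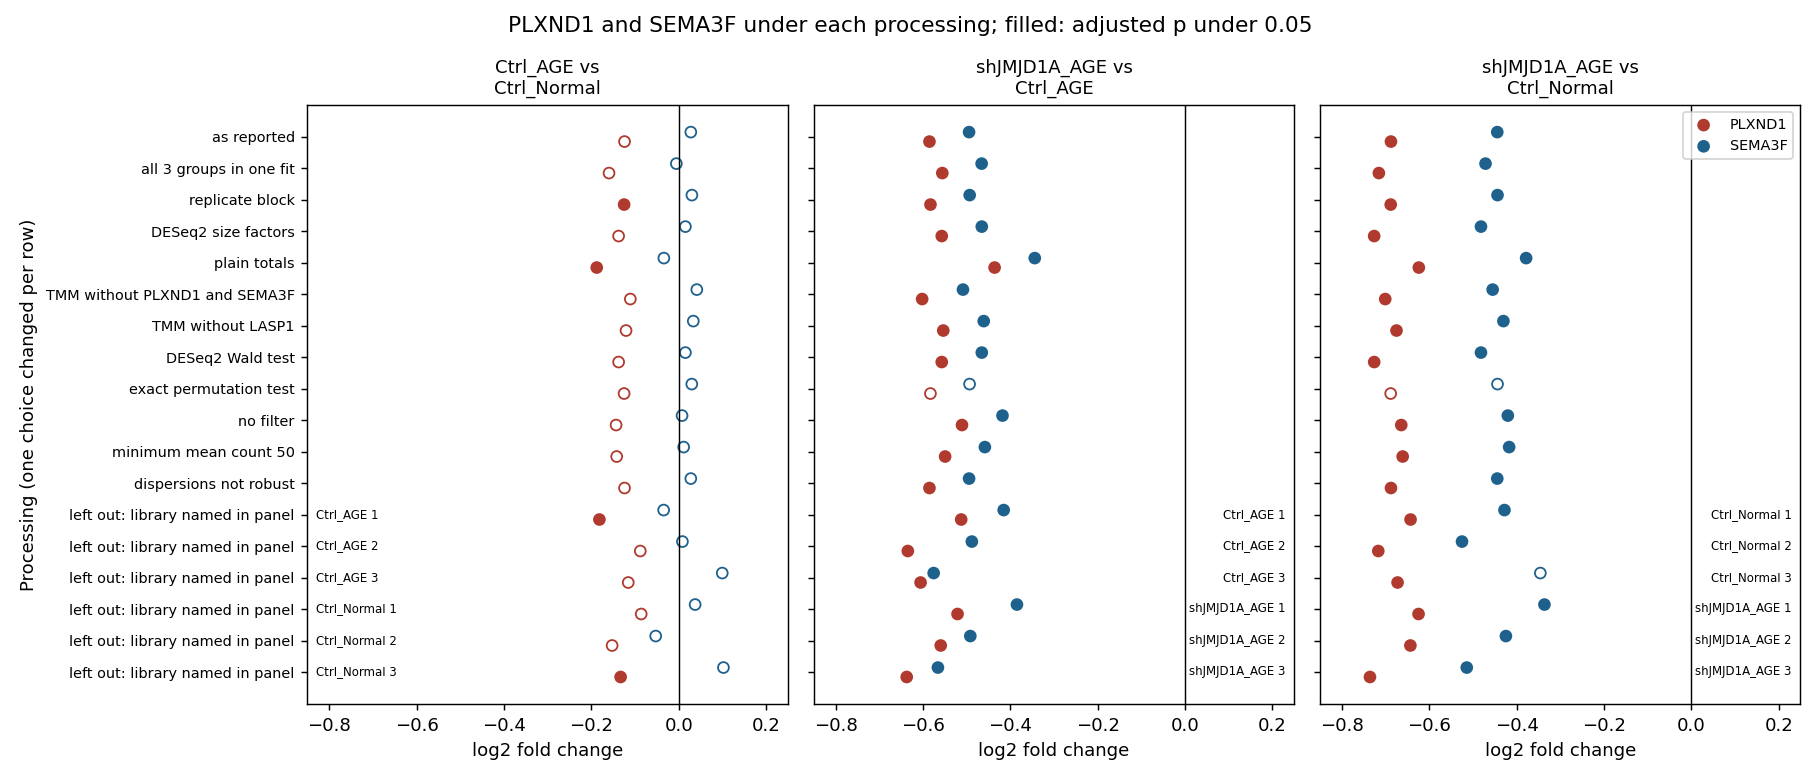
Log2 fold changes of PLXND1 (red) and SEMA3F (blue) in the 3 comparisons as reported and with one processing choice changed per row; filled points passed at an adjusted p under 0.05, open points did not. In both knockdown comparisons all points lie below 0, and with AGEs alone SEMA3F lies on both sides of 0.

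Whether PLXND1 and SEMA3F changed by different amounts was compared through the ratio of their counts within a library. This ratio does not depend on the scaling, and it does not measure signalling between them. The ratio of PLXND1 to SEMA3F counts was 3.33, 3.48 and 2.88 in Ctrl_Normal. It was 2.87, 2.66 and 3.17 in Ctrl_AGE, and 2.91, 2.62 and 2.64 in shJMJD1A_AGE. All 3 groups overlapped. The mean ratio was 3.23 ± 0.314 (SD, n = 3) in Ctrl_Normal, 2.90 ± 0.257 (SD, n = 3) in Ctrl_AGE and 2.72 ± 0.160 (SD, n = 3) in shJMJD1A_AGE.

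On the log2 scale the ratio in knockdown cells was below that in Ctrl_AGE by a difference of −0.090 (standard error 0.0878), with an exact two-sided permutation p of 0.4. Against Ctrl_Normal the difference was −0.24 (standard error 0.0959, exact permutation p = 0.2). Between Ctrl_AGE and Ctrl_Normal it was −0.15 (standard error 0.111, exact permutation p = 0.2). Adjusted over the 3 pairs of groups the p-values were 0.4, 0.3 and 0.3 by the exact permutation test. A p under 0.1 cannot be reached with 3 libraries against 3, so no pair could pass by this test. Neither a different nor an equal response of the 2 genes was shown.

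Single libraries moved these differences. Between knockdown and Ctrl_AGE the difference was −0.023 without Ctrl_AGE replicate 3 and −0.15 without Ctrl_AGE replicate 2. Between Ctrl_AGE and Ctrl_Normal it lay from −0.095 without Ctrl_AGE replicate 2 to −0.24 without Ctrl_Normal replicate 3, and between knockdown and Ctrl_Normal from −0.33 to −0.19. All of them stayed below 0.

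**Figure D4:**
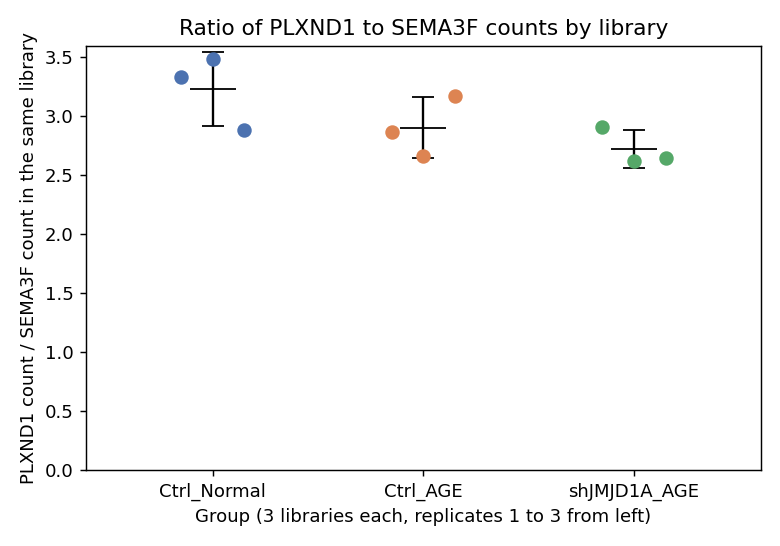
Ratio of the PLXND1 count to the SEMA3F count in each library, by group; points are libraries, bars the mean with the SD (n = 3). The ratios lie between 2.62 and 3.48 and the groups overlap.

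Over the 9 libraries, the gene nearest in pattern to PLXND1 among the 45 others tested was SEMA3F, and the nearest to SEMA3F was PLXND1. Likeness was measured as the root mean square difference of log2 CPM (counts scaled to a common library size) after each gene's own mean was subtracted. It was 0.14 between the members. TSPAN6, a tetraspanin of the cell membrane, came next for both, at 0.16 from PLXND1 and 0.15 from SEMA3F. It fell by 0.41 on the log2 scale after knockdown (standard error 0.0831, adjusted p = 0.00215 by edgeR).

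ANKIB1, an E3 ubiquitin ligase, came after it for PLXND1 (0.19). It had log2 fold changes of −0.15 with AGEs and −0.22 after knockdown. It did not pass in either comparison (adjusted p = 0.0675 and 0.0510 by edgeR), though in both the groups did not overlap. Against Ctrl_Normal it was lower in the knockdown cells by a log2 fold change of −0.35 (standard error 0.0833, adjusted p = 0.00512 by edgeR), and the groups did not overlap. The libraries and their scaling are common to all these genes.

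**Figure D5:**
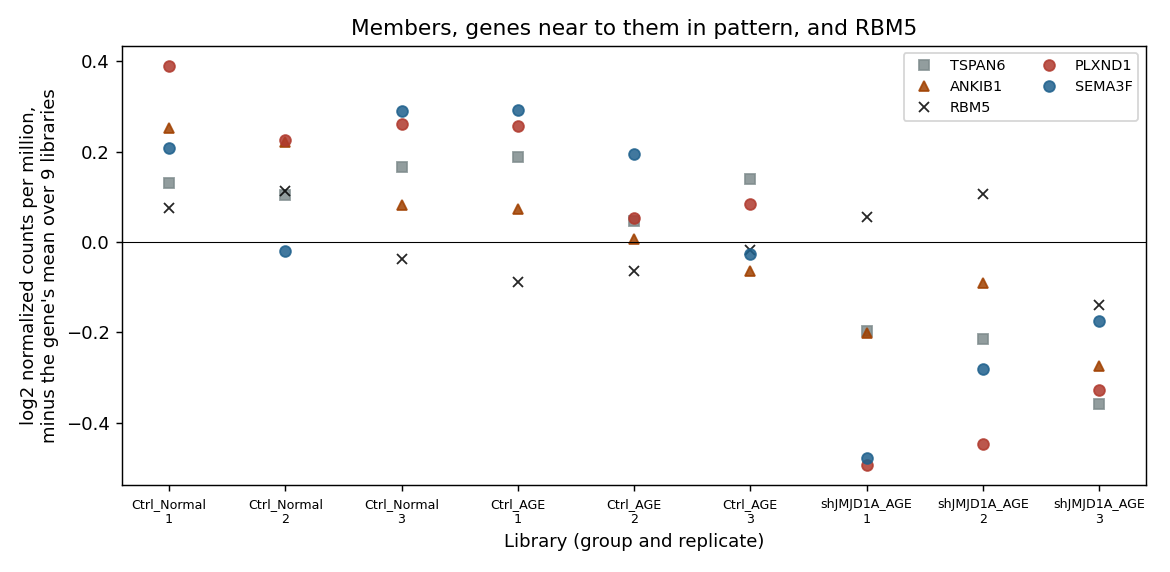
Log2 CPM of PLXND1, SEMA3F, TSPAN6, ANKIB1 and RBM5 in each library, minus each gene's mean over the 9 libraries. All genes shown except RBM5 lie below their mean in the 3 knockdown libraries, PLXND1 at −0.49 to −0.33 and SEMA3F at −0.48 to −0.18.

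A neighbour of SEMA3F on the chromosome did not pass after knockdown. RBM5, which encodes an RNA-binding regulator of splicing, ends 36024 bp before SEMA3F and is the only other gene of chromosome 3 among those analysed; it was chosen after its values were seen. Its normalized counts were 1689 to 1773 in Ctrl_AGE and 1630 to 1931 in shJMJD1A_AGE. The log2 fold change was 0.039 (standard error 0.0866, adjusted p = 0.714 by edgeR), against −0.49 for SEMA3F. The difference between the 2 genes was not tested.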

How the data were processed

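Poly(A) RNA of 9 HK-2 libraries was sequenced. The submitters' processing notes name Trim Galore, HISAT2 2.1.0, featureCounts and the build GRCh38, and the authors deposited raw read counts per gene. The counts were used as deposited. Those analysed here cover 49 genes, all matched to GENCODE release 44 on the same assembly. Ranks, shares of genes passed and edgeR's adjusted p-values refer to these genes only, not to the whole transcriptome. Groups come from the sample titles.

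Each comparison used the 6 libraries of its pair of groups and edgeR 4.0.16 in R 4.3.3. Genes of low count were removed by filterByExpr at its defaults (a count of 10 and a total of 15), libraries were scaled by TMM, and the quasi-likelihood F test was run with the robust option and no covariate. The threshold was 0.05 after Benjamini-Hochberg adjustment over all genes tested. The test pools the spread over genes. Standard errors were derived from the fold change and its F value. Normalized counts were scaled over all 9 libraries, so that their ratios can differ from the fold changes of a pair. Alternatives included DESeq2 1.42.0. The tests were tested on simulated data.

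The genes and lists were chosen with earlier results of these data known. Other genes named are those nearest in pattern (the first 3 for each gene, prior count 2), of which 1 is not reported here, and RBM5.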

Additional observations from a re-analysis of the deposited data

How the results depend on the processing

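Both genes were lower in both knockdown comparisons under all alternatives tried. All scalings among these were computed from the 49 genes analysed. Their agreement therefore cannot show a shift shared by most of these genes. By the exact permutation test, which cannot pass, the adjusted p was 0.167 for both genes against Ctrl_AGE (log2 fold changes −0.58 for PLXND1 and −0.49 for SEMA3F) and 0.214 against Ctrl_Normal (−0.69 and −0.44). Leaving out 1 library gave −0.52 to −0.34 for SEMA3F against Ctrl_Normal, and the call was lost without Ctrl_Normal replicate 3 only. With AGEs alone, leaving out 1 library gave −0.18 to −0.086 for PLXND1 and −0.053 to 0.10 for SEMA3F. There plain totals gave −0.19 for PLXND1, which then passed, and −0.034 for SEMA3F, and all 3 groups in one fit gave −0.0055 for SEMA3F. The cause was not tested.

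No pairing of the libraries by replicate number was seen in their correlations, which rest on few genes and libraries. Same-numbered libraries correlated between −0.36 and 0.33, and at most 1 of 6 correlated best with its own number. With a replicate block, PLXND1 passed with AGEs alone (−0.13, adjusted p = 0.0162 by edgeR), no other call of these genes changed, and 16, 19 and 19 genes passed in the 3 comparisons in place of 15, 19 and 18. The exact permutation test passed 0 genes in each, where 22, 24 and 22 had an unadjusted p under 0.05 by edgeR and 15, 22 and 17 passed by DESeq2. With a fold of at least 2 also required, 0, 4 and 6 genes passed. With plain totals the genes that passed in the second comparison were 13 higher and 8 lower, in place of 9 and 10, and in the first 6 and 11, in place of 9 and 6.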
